A study of Mus musculus with 5 samples.

Results

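The genes described here encode the proteins of the mitochondrial ribosome. They were taken from the deposited array table as every probe set whose single gene symbol begins with Mrpl or Mrps followed by a digit. This gave 76 genes of 19505 with a symbol, each read by 1 probe set among the 22206 of the table. Of these symbols 48 begin with Mrpl and 28 with Mrps. By the position of the protein, 50 belong to the large subunit, including Mrps18a and Mrps30 despite their names, and 25 to the small subunit. Mrps36 has since been assigned to the 2-oxoglutarate dehydrogenase complex of the citric acid cycle and was kept apart in counts by subunit.

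Mitochondrial ribosomes translate the few messages encoded in mitochondrial DNA, all of them for membrane subunits of the respiratory chain and ATP synthase. Their RNAs come from mitochondrial DNA, whereas every one of their proteins is encoded in the nucleus, made in the cytosol and imported. Some of the proteins have counterparts in bacterial ribosomes and others were added in the mitochondrial lineage. Fat cells build up mitochondria as they differentiate, and need respiration for fatty acid oxidation and lipid synthesis.

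RNA came from 3T3-L1, an established mouse preadipocyte line, after adipogenic differentiation (IBMX at 0.5 mM, dexamethasone at 1 µM and insulin at 5 µg/mL for 4 days, then 2 days of insulin and 1 day of basal medium). Afterwards all cultures spent 72 h in RPMI-1640 medium with 10% FBS and penicillin/streptomycin. On the 3 exposed arrays, MM.1S cells, a human multiple myeloma line, had shared this medium behind a transwell membrane of 0.4 µm pores. The 2 control arrays came from cultures in the same medium without myeloma cells. The question is how an adipocyte's RNA differs when myeloma cells are near but not touching. The labels do not say whether the replicates were separate cultures, so the p-values measure the spread between samples that may be technical ones.

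Marker genes were read on all arrays, without detection calls. Among 10 fat cell markers, Fabp4 read 12.34 to 12.41, Adipoq 11.39 to 11.73 and Pparg 10.95 to 11.05, while Lep read 2.75 to 3.45. The preadipocyte gene Dlk1 read 10.23 to 10.68, and the 5 preadipocyte markers had a median level of 8.55. Median levels were 3.14 for 5 macrophage, 2.94 for 4 endothelial, 3.93 for 5 skeletal muscle and 2.69 for 6 B and plasma cell markers, of which Sdc1 read 7.26 to 7.81. These are readings of different probes and give no share of any cell type. Array medians over the whole table lay between 4.795 and 4.88. The table held no detection calls, and 5 arrays limit the precision of all values. Probes differ in brightness, so values of different genes on the array are not ranked against each other.

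All 76 genes had a mean log2 value at or above the median of the table (4.81), and 59 reached its upper quartile (6.85). Their means ran from 5.24 to 10.75 with a median of 8.08. Across the 5 arrays a gene's highest and lowest values were 0.37 apart in the median on the log2 scale. That gap was 0.50 over all probe sets and 0.44 over those at or above the table's median. The narrowest range was 0.062 and the widest 1.08.

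No mitochondrial ribosomal protein gene passed the test between exposed and control arrays. Limma called 0 of 76 at an adjusted p under 0.05, and the same fit called 0 of 22206 probe sets (0%). The members' adjusted p-values lay between 0.93 and 0.999. At an unadjusted p under 0.05 the fit had 1 of the 76 (1.32%), and 3.49% of all probe sets. That member was higher on exposed arrays, as were 1.82% of all probe sets at this p, while 0 members and 1.68% of all probe sets were lower. The fit without moderated variances also called 0 members. At an unadjusted p under 0.05 it had 3 of them and 626 of the 22206 probe sets. For 74 of the 76 (97.4%) the 95% interval of the difference lay within 2-fold in both directions. It did so for 92.9% of all probe sets and 96.1% of those at or above the table's median. The exceptions were Mrpl1 on the lower side and Mrpl47 on the higher side.

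Most of the genes had a slightly higher mean on exposed arrays. In 61 of 76 (80.3%) the exposed mean was the higher one, and in 49.9% of all probe sets. The median difference, exposed minus control, was 0.093 on the log2 scale, against -0.00040 over all probe sets and -0.025 over the 11103 brighter probe sets, those not under the table's median mean. Differences ran from -0.24 to 0.40, while the median standard error of a single gene was 0.15. The median was 0.053 without exposed array 3, 0.047 without control array 1 (where the spread is then taken from exposed arrays alone) and 0.14 without exposed array 1. In RNA from whole cultures, a lower number of cells of a type and less RNA per cell cannot be told apart. Among the 10 fat cell markers 3 had a higher exposed mean, with a median difference of -0.044, and among 5 preadipocyte markers 1 did, with a median of -0.098. The fat cell markers' median deviations from their own means were 0.032, 0.036 and -0.020 on the exposed arrays and 0.022 and 0.033 on the controls. On exposed array 3, where most ribosomal protein genes were highest, 5 of the 10 fat cell markers had their lowest value and 3 their highest. Of all probe sets 22.4% were lowest and 24.6% highest there, and of the brighter ones 25.7% each. Plin1 read 9.08 on that array and 9.77 to 9.90 on the others, Cebpa 5.88 and 6.24 to 6.40, and Cidec 9.80 and 10.07 to 10.18. In the other direction, Retn read 9.22 and 8.49 to 9.10, Adipoq 11.73 and 11.39 to 11.61, and Lep 3.45 and 2.75 to 3.26. Retn had the largest difference of the 10 markers, 0.46 (0.056 to 0.86, limma adjusted p 0.93). The part of these markers in the ribosomal protein values was not tested.

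**Figure D1:**
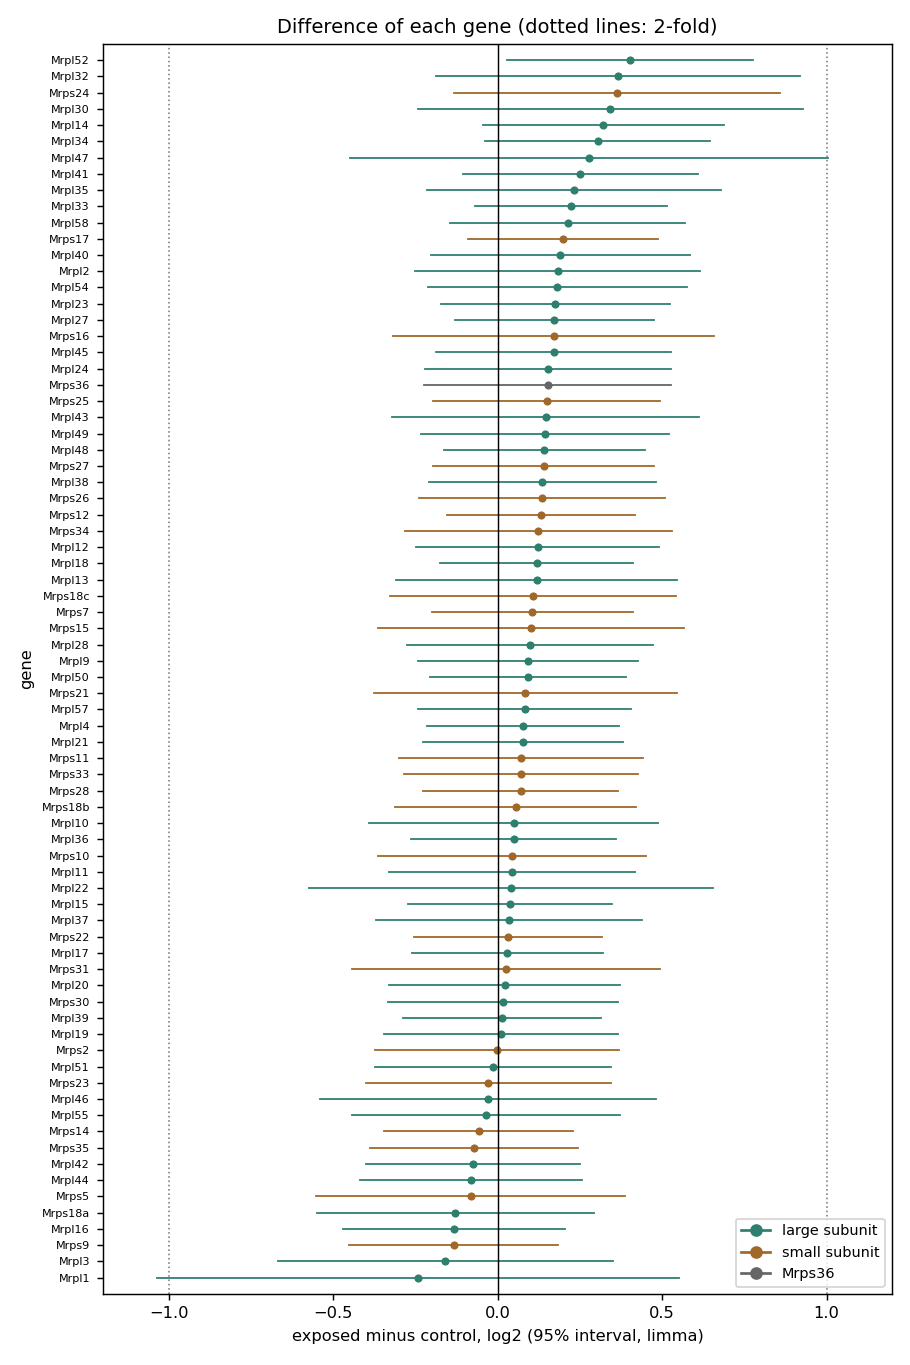
Difference of each of the 76 genes between exposed (n = 3) and control (n = 2) arrays on the log2 scale, with the 95% interval from limma. Points are the differences, colours the subunit and dotted lines a 2-fold difference. The interval of Mrpl52 lies above 0, those of Mrpl1 and Mrpl47 reach past a 2-fold line, and no gene passed the test after adjustment.

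Every exposed array lay above both control arrays for 11 of the 76 genes (14.5%), against 8.5% of all probe sets, and below both for 1 (1.32%), against 8.84%. The 11 were Mrpl14, Mrpl18, Mrpl27, Mrpl33, Mrpl34, Mrpl48, Mrpl52, Mrpl58, Mrps7, Mrps12 and Mrps17, of which 8 belong to the large subunit. The single gene below was Mrps14, where exposed array 1 (10.7475) lay barely under control array 1 (10.7484). These genes include some outside the rule for named genes, and were listed after their values were seen. Over both directions 12 members (15.8%) did not overlap between groups, against 17.3% of all probe sets and 18.4% of the brighter ones.

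The genes with the lowest unadjusted p on the higher side were Mrpl52, Mrpl34, Mrpl14, Mrpl33 and Mrps24. In what follows 5 values are given in the order exposed arrays 1, 2 and 3, then control arrays 1 and 2. Mrpl52, a large subunit protein without a bacterial counterpart, read 8.50, 8.37 and 8.64 against 7.97 and 8.24. All exposed arrays were above both controls, with the gap resting mainly on control array 1. Its means were 8.51 ± 0.14 (SD, n = 3) and 8.10 ± 0.20 (SD, n = 2), a difference of 0.40 (0.027 to 0.78) or 1.32-fold. Without control array 1 the difference was 0.26. The limma p of 0.039 became an adjusted 0.93.

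Mrpl34 encodes a very small protein with a bacterial counterpart. It read 8.25, 8.51 and 8.41 against 8.01 and 8.16, a difference of 0.30 (-0.037 to 0.64). Mrpl14, on the face of the large subunit where the assembly factor Malsu1 binds, read 6.99, 7.04 and 6.88 against 6.48 and 6.82. Control array 1 was the low point, and control array 2 came within reach of exposed array 3. The difference was 0.32 (-0.046 to 0.69), and 0.15 without control array 1 or 0.49 without control array 2.

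Mrpl33, another small protein of bacterial descent, had little spread within groups. It read 10.56, 10.60 and 10.66 against 10.41 and 10.35, a difference of 0.22 (-0.068 to 0.52). Mrps24, which lines the entry of the mRNA channel in the small subunit, read 5.88, 5.52 and 6.14 against 5.40 and 5.56. Exposed array 2 lay below control array 2, so the groups overlapped. Its difference was 0.36 (-0.13 to 0.86), or 0.22 without exposed array 3, and none of these genes passed (limma adjusted p 0.93 each).

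On the lower side the genes with the lowest unadjusted p were Mrps9, Mrpl16, Mrpl3, Mrps18a and Mrpl1. Mrps9, a small subunit protein whose tail reaches towards the P site, read 8.06, 8.005 and 7.87 against 8.17 and 8.05. Exposed array 1 lay between the controls and the other exposed arrays below both, and the difference was -0.13 (-0.45 to 0.18), or -0.080 without exposed array 3 and -0.071 without control array 1. Mrpl16, which lies near the tRNA sites of the large subunit, read 6.51, 6.79 and 6.67 against 6.83 and 6.75. Exposed array 2 fell between the control values, and the difference was -0.13 (-0.47 to 0.20), or -0.060 without exposed array 1 and -0.20 without exposed array 2.

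Mrpl3, which extends towards the peptidyl transferase centre, read 6.598, 6.97 and 7.24 against 7.19 and 7.00. The exposed values spanned both controls, with a difference of -0.16 (-0.67 to 0.35). Mrpl1, the protein of the mobile L1 stalk, had the widest range of all 76 genes. It read 5.40, 6.33 and 6.47 against 6.33 and 6.29. The low mean came from exposed array 1, while the other exposed arrays were at or above the controls. The difference was -0.24 (-1.03 to 0.55), and without exposed array 1 it was 0.094. That of Mrpl3 was likewise 0.011 without exposed array 1.

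**Figure D2:**
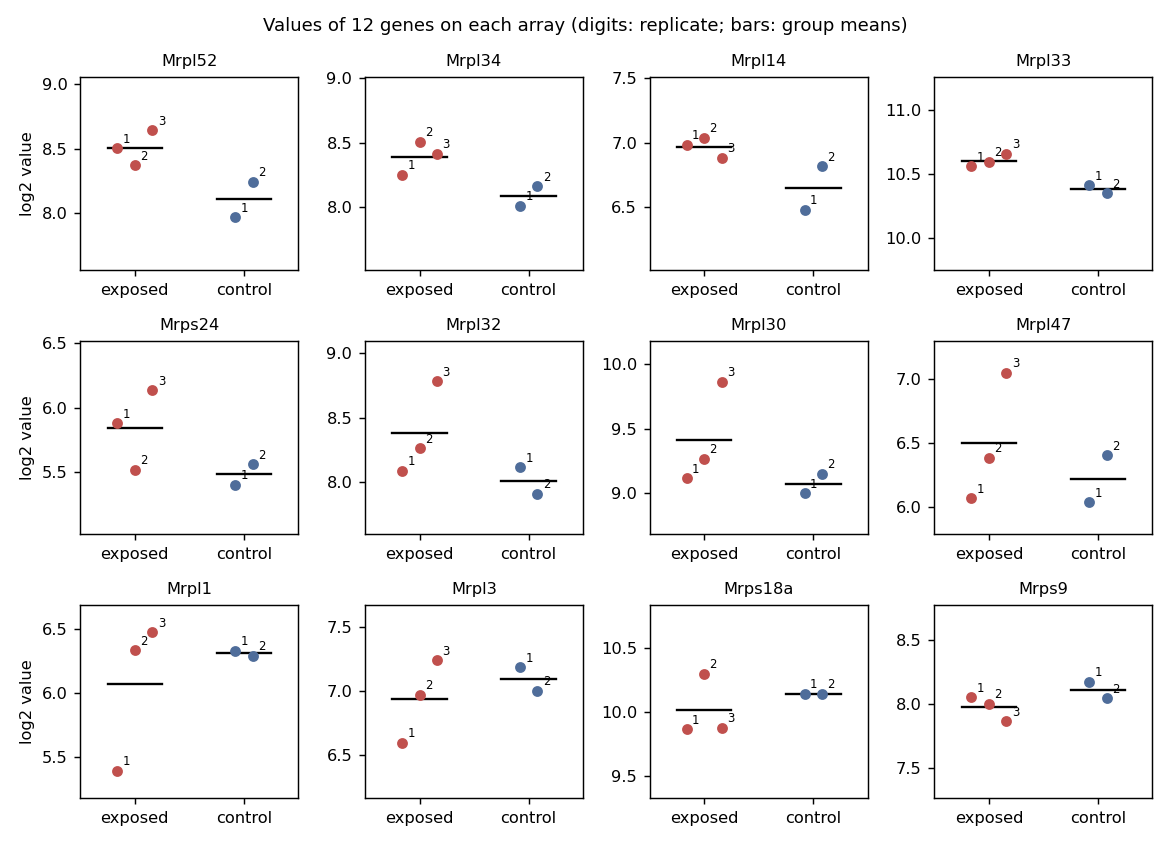
Log2 values of 12 genes on each array, exposed in red and control in blue. Points are arrays, digits beside them the replicate number, bars the group means, and each panel spans the same height in log2 units. Mrpl52, Mrpl34, Mrpl14 and Mrpl33 separate the groups, Mrpl32, Mrpl30 and Mrpl47 are high on exposed array 3 alone, and Mrpl1 is low on exposed array 1 alone.

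Promoters of 7 of these genes are printed because they differ in the motifs known from genes of mitochondrial biogenesis. Each window runs from 250 bases before to 50 after the RefSeq start (GRCm38.p6), 5′ to 3′ on the strand of the gene, with matches to the motifs named further below in capitals. Mrpl52 is at chr14:54426659-54426958 (plus strand), Mrpl34 at chr8:71464676-71464975 (plus strand), Mrpl33 at chr5:31613701-31614000 (plus strand), Mrpl14 at chr17:45686099-45686398 (plus strand), Mrpl32 at chr13:14612988-14613287 (minus strand), Mrps18a at chr17:46110754-46111053 (plus strand) and Mrpl1 at chr5:96209865-96210164 (plus strand).
Mrpl52: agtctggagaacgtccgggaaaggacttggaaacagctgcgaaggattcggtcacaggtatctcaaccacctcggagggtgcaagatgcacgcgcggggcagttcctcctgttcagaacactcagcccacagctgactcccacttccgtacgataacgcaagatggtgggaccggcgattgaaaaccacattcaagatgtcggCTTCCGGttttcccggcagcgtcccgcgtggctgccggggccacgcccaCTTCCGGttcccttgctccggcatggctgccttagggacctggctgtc
Mrpl34: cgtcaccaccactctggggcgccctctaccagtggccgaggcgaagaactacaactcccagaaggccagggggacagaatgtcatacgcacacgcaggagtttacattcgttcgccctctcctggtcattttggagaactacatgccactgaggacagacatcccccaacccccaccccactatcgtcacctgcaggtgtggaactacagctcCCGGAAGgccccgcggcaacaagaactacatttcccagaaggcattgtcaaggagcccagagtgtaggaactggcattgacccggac
Mrpl33: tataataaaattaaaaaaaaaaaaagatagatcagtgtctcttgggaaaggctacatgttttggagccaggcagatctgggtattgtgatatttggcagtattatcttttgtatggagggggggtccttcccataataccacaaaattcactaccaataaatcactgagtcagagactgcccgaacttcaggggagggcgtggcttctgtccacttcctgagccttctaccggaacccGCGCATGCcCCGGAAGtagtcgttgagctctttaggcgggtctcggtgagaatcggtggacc
Mrpl14: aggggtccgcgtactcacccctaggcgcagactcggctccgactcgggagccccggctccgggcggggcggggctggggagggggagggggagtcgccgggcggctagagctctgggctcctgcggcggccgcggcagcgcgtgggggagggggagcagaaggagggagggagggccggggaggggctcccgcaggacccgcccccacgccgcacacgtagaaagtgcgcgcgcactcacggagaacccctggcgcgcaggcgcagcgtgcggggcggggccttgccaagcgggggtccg
Mrpl32: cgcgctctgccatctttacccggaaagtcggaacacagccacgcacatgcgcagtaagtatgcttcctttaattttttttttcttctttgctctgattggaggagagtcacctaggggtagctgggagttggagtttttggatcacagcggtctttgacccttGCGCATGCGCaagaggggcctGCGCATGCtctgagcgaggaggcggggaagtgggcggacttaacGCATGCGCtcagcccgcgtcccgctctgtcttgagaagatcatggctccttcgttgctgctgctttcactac
Mrps18a: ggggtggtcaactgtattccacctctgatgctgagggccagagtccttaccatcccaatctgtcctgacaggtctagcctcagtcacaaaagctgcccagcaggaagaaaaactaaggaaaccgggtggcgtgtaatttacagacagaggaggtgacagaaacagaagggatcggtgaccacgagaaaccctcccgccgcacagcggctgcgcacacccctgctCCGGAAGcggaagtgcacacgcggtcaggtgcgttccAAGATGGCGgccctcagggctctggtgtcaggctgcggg
Mrpl1: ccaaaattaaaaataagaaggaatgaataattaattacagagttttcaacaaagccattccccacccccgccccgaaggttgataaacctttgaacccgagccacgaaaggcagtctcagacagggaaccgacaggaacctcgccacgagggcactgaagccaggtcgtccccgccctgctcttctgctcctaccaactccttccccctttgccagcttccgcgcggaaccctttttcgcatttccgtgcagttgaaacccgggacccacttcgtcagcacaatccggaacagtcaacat

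The windows of Mrpl52, Mrpl34, Mrpl33 and Mrps18a hold the ETS letters. That of Mrpl33 also holds the NRF1 letters, and that of Mrps18a the YY1 letters. The Mrpl32 window holds the NRF1 letters several times, whereas those of Mrpl14 and Mrpl1 hold none of the motifs searched. The genes with matches thus include some with higher and some with lower exposed means.

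RefSeq windows were found for 67 of the 76 genes, 73 windows in all because a few genes have several starts. The motifs, searched on both strands, were CCGGAAG for ETS factors such as GABPA, GCGCATGC for NRF1 and AAGATGGCG for YY1. Also searched were TCAAGGTCA for ESRRA, the E-box CACGTG bound by MYC and others, and the TATA box TATAAA. No match of one overlapped a match of another. GABPA, NRF1, YY1 and ESRRA are nuclear factors known to act on genes for mitochondrial proteins.

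The ETS letters were in 25 of 73 windows (34.2%), against 8.86% of all 32851 windows of this length. Of their 29 matches 26 lay from 100 bases before to 50 after the start. The NRF1 letters were in 8 windows (11.0%, against 2.71% of all) and the YY1 letters in 8 (11.0%, against 1.40%). E-box letters were in 7 windows (9.59%, against 7.15%), which belong to only 5 genes, as overlapping windows of Mrpl2 hold the same site. TATA letters were in 6.85% against 13.6%, and ESRRA letters in 0 windows against 0.423%. The windows of these genes were also richer in G and C, with a median of 58.3% against 52.7%, and held a median of 21 CG pairs against 7. Base composition by itself moves such shares, and a match is not shown to be a bound site. In 30 windows (41.1%) no motif matched.

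**Figure D3:**
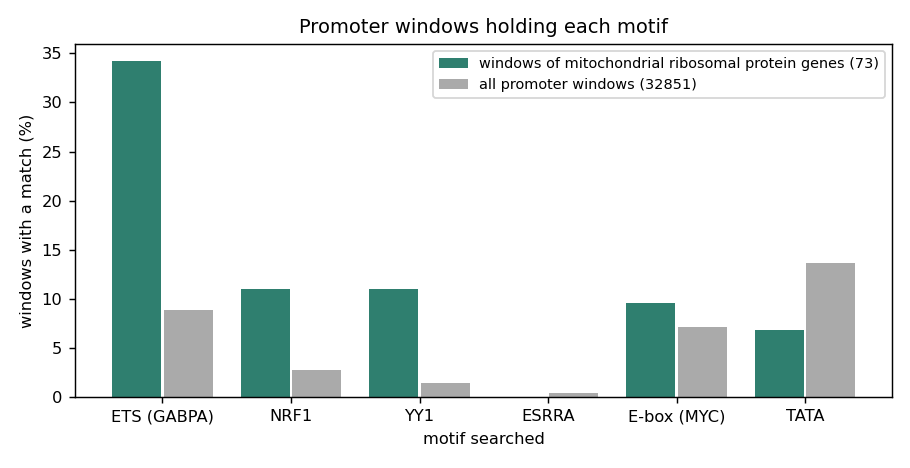
Share of promoter windows with at least 1 match on either strand for 6 motifs, in the 73 windows of mitochondrial ribosomal protein genes and in all 32851 windows. Bars start at 0 and have no error because each is a complete count. ETS letters occur in 34.2% against 8.86% and TATA letters in 6.85% against 13.6%.

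Genes with and without the ETS letters had median differences close to each other, while their medians on single arrays were less alike. The 25 genes with them had a median difference of 0.11, with 21 higher, and the 42 others with a window had a median of 0.093, with 32 higher. Median deviations from the genes' own means were -0.025, 0.077 and 0.14 against -0.069 and -0.047 with the letters. Without the letters they were -0.096, 0.039 and 0.14 against -0.075 and -0.0089. The difference between these sets was not tested.

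A good part of the promoter windows overlapped the window of a neighbouring gene, which does not show that a promoter is shared. For 24 of the 67 genes the window overlapped that of another gene read from the opposite strand, in 26 of 73 windows (35.6%) against 10.8% of all. For 22 genes the partner was measured as well. Mrpl46 and Mrps11 form such a pair with each other. Other partners were Ndufb5 for Mrpl47, the mitochondrial seryl-tRNA synthetase gene Sars2 for Mrps12, the mitochondrial helicase gene Twnk for Mrpl43 and the proteasome gene Psma2 for Mrpl32. The partners had a median difference of -0.0071, with 11 of 22 higher on exposed arrays and 0 called by limma, and the 22 ribosomal protein genes one of 0.14. Member and partner had the same sign in 11 of 22. Mrpl46 and Mrps11, which differ in sign, are counted from each side in these 22 and in both medians. The differences were 0.28 for Mrpl47 and 0.024 for its neighbour Ndufb5, and 0.14 for both Mrpl49 and its neighbour Fau. Partner and member share the arrays, and the gap between them was not tested.

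The genes deviated together from array to array. Each gene's mean over the 5 arrays was subtracted and the median over the 76 taken on each array. This median was -0.071, 0.047 and 0.12 on exposed arrays 1, 2 and 3, and -0.078 and -0.017 on control arrays 1 and 2. Exposed array 1 lay below control array 2 and near control array 1, so the groups overlapped in the deposited values. Over all probe sets the same medians lay between -0.0078 and 0.0040. Over the 11103 brighter probe sets, which include all 76 genes, they were -0.041, 0.019 and 0.00069 on the exposed arrays and 0.021 and 0.0059 on the controls, so exposed array 1 was low there as well. The exposed medians had a mean of 0.033 ± 0.097 (SD, n = 3) and the control medians one of -0.047 ± 0.043 (SD, n = 2), a gap smaller than the SD among exposed arrays. The overlap depended on the scaling. With quantile normalization repeated, the 76 genes had exposed medians of -0.0092, 0.027 and 0.12, all above the control medians of -0.10 and -0.023. With arrays shifted to one median, exposed array 1 was the lowest of all at -0.13.

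Exposed array 3 held the highest value for 45 of 76 genes (59.2%), against 24.6% of all and 25.7% of the brighter probe sets. On that array 59 genes (77.6%) were above their own mean, against 50.1% of the brighter probe sets. On exposed array 2 it was 52 (68.4%, against 57.5%) and on control array 2 it was 32 (42.1%, against 52.5%). On exposed array 1 it was 24 (31.6%, against 39.1%) and on control array 1 it was 15 (19.7%, against 57.6%). Over all probe sets these shares lay between 47.8% and 51.4%. The lowest value fell on control array 1 for 28 genes (36.8%, against 19.5% of all and 14.9% of the brighter probe sets). It fell on exposed array 1 for 26 (34.2%), against 24.6% of all and 32.9% of the brighter ones. The brighter probe sets were not matched to the 76 genes in level, with a median of 6.85 against 8.08. Between the 2 exposed arrays farthest apart, 62 of 76 genes were higher on array 3 than on array 1, with a median step of 0.17. By contrast, exposed array 1 and control array 1 had a median step of -0.0004, with 37 genes higher on the control and 38 lower.

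The first principal component of the 76 genes took 54.6% of their variation across arrays, against 32.4% over all and 38.8% over the brighter probe sets. Its weights were -0.52, 0.11 and 0.80 on the exposed and -0.26 and -0.13 on the control arrays. Over all probe sets the weights were -0.70, -0.027 and 0.72 on the exposed and near 0 on the control arrays. In both, exposed array 1 stood at the opposite end from exposed array 3. The part of this table-wide contrast in the ribosomal protein values was not tested. Correlations between genes are not given, since 5 arrays are too few.

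**Figure D4:**
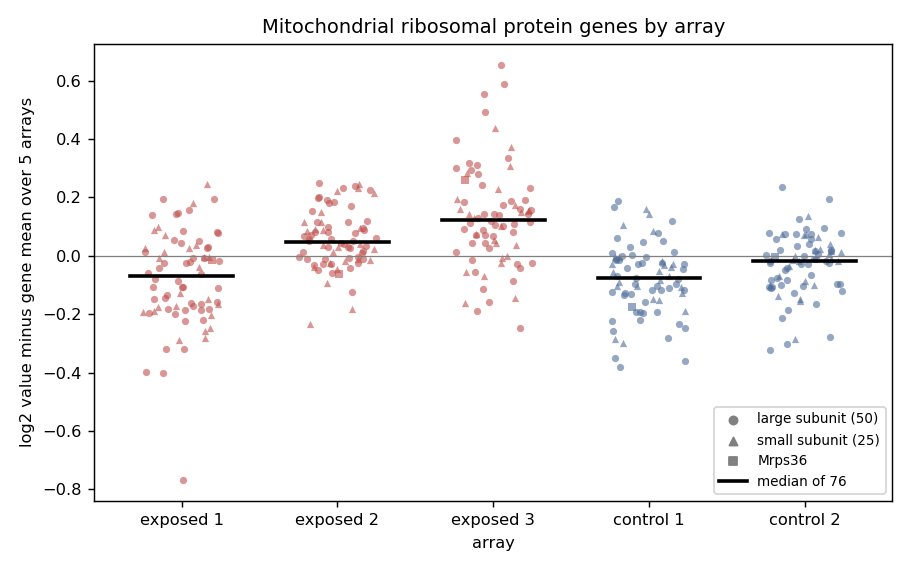
Deviation of each of the 76 genes from its own mean over the 5 arrays, on the log2 scale, for exposed (red) and control (blue) arrays. Symbols mark the subunit and black bars the median of the 76 genes. The medians are -0.071, 0.047 and 0.12 on the exposed arrays and -0.078 and -0.017 on the control arrays, and the lowest point is Mrpl1 on exposed array 1.

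The genes that varied most followed this pattern in part. Mrpl47, a protein beside the exit of the peptide tunnel, read 6.07, 6.39 and 7.05 against 6.04 and 6.41. Exposed array 3 alone was high, and the other exposed arrays lay between the controls. Mrpl32, which is cut by the mitochondrial m-AAA protease before it enters the ribosome, read 8.09, 8.26 and 8.78 against 8.11 and 7.91. Mrpl30 read 9.11, 9.26 and 9.86 against 8.99 and 9.15. Exposed array 3 was again the one that stood out in both. The differences were 0.28 (-0.45 to 1.00) for Mrpl47, 0.37 (-0.19 to 0.92) for Mrpl32 and 0.34 (-0.24 to 0.93) for Mrpl30, and none passed (limma adjusted p 0.93 each). Without exposed array 3 they were 0.0056, 0.16 and 0.12 in the same order.

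At the other extreme were Mrps22, Mrpl17, Mrps14 and Mrpl4. Mrps22, a small subunit protein without a bacterial counterpart, stayed between 5.22 and 5.28. Mrpl17, near the exit of the peptide tunnel, read 10.10, 10.11 and 10.20 against 10.10 and 10.11. Mrps14 read 10.75, 10.71 and 10.72 against 10.75 and 10.82, and Mrpl4, whose loop lines the tunnel, 7.48, 7.39 and 7.43 against 7.39 and 7.32. The arrays lay close together for all 4 genes, with differences between -0.058 and 0.078. Narrow ranges here included identical readings, since 11 of the 76 genes, and 27.2% of all probe sets, had the same value on at least 2 arrays.

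Both subunits had mostly higher exposed means. Of 50 large subunit genes 41 had a higher exposed mean, with a median difference of 0.097, and of 25 small subunit genes 19, with a median of 0.072. By array, the large subunit medians were -0.082, 0.055 and 0.12 against -0.088 and -0.022. The small subunit medians were -0.038, 0.038 and 0.13 against -0.054 and -0.011. Of 46 genes with a bacterial counterpart 37 were higher (median 0.089), and of 29 without one 23 were (median 0.091). No difference between these sets was tested.

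The stalks of the large subunit take part in binding elongation factors and in the exit of spent tRNA. Of 4 measured stalk genes 3 were higher, with a median of 0.046, Mrpl1 at -0.24 and Mrpl12 at 0.12. Mrpl12, the stalk protein that also binds mitochondrial RNA polymerase, read 8.83, 9.11 and 9.18 against 8.87 and 8.96. Exposed array 1 was below both controls, and the interval was -0.25 to 0.49. Leaving out 1 array gave 0.054 (without exposed array 3) to 0.23 (without exposed array 1). Near the peptidyl transferase centre 3 of 5 genes were higher (median 0.078), with Mrpl2 at 0.18 (-0.25 to 0.62). Its values were 7.76, 8.02 and 8.28 against 7.82 and 7.85, and exposed array 1 was again the lowest. The difference was 0.053 without exposed array 3 and 0.31 without exposed array 1.

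Around the exit of the tunnel, where the ribosome is held at the inner membrane, 6 of 7 genes were higher, with a median of 0.15 and the largest difference in Mrpl47. Of 6 genes of the central protuberance, which faces the small subunit, 5 were higher, with a median of 0.14. The largest difference there was that of Mrpl58, a peptidyl-tRNA hydrolase that frees stalled ribosomes, at 0.21 (-0.15 to 0.57). It read 7.43, 7.42 and 7.44 against 7.39 and 7.05. The exposed arrays were nearly identical, and control array 2 was the low point, without which the difference was 0.039 (0.39 without control array 1). In the small subunit, 2 of 4 genes around the mRNA path were higher (median 0.065), with the largest difference in Mrps24. None of the genes in these role groups passed the test.

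The Mrps18 genes are 3 paralogues of a single bacterial protein. Mrps18a, which sits in the large subunit, read 9.87, 10.30 and 9.88 against 10.14 on both controls. Mrps18b read 8.48, 8.69 and 8.33 against 8.43 and 8.47, and Mrps18c 8.97, 9.46 and 9.35 against 9.19 and 9.12. All 3 were highest on exposed array 2, unlike most of the other genes. Their differences were -0.13 (-0.55 to 0.29), 0.054 (-0.31 to 0.42) and 0.11 (-0.33 to 0.54), and the sign of Mrps18b turned to -0.042 without exposed array 2. With 1 array left out, Mrps18a ranged from -0.27 (without exposed array 2) to -0.055 (without exposed array 1). Mrps18c ranged from 0.0053 (without exposed array 2) to 0.25 (without exposed array 1).

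Mrps30, of the large subunit, read 6.59, 6.81 and 6.90 against 6.73 and 6.77, with a difference of 0.017 (-0.33 to 0.37), and it turned to -0.050 without exposed array 3. Its exposed values lay on both sides of the controls. Mrps36 read 8.89, 8.84 and 9.17 against 8.73 and 8.90, a difference of 0.15 (-0.22 to 0.53). Exposed array 3 was the highest, and exposed arrays 1 and 2 lay between the controls. The difference was 0.053 without exposed array 3, 0.067 without control array 1 and 0.24 without control array 2.

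Subunits of the same ribosome that carry other symbols had higher exposed means in 4 of 4 measured cases, with a median difference of 0.21. Gadd45gip1 is also called CRIF1. It read 5.96, 6.09 and 6.25 against 5.53 and 5.86, with a difference of 0.40 (0.0047 to 0.80). Chchd1, of the small subunit, read 7.63, 8.28 and 7.99 against 7.65 and 7.82, a difference of 0.24 (-0.28 to 0.75). In Gadd45gip1 the groups did not overlap, while in Chchd1 they did, and neither passed (limma adjusted p 0.93).

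Of 13 measured translation factors 4 had a higher exposed mean, with a median of -0.13, and 0 were called by limma (0 at an unadjusted p under 0.05). The initiation factor gene Mtif2 read 4.78, 5.65 and 5.33 against 6.22 and 5.60, a difference of -0.65 (-1.39 to 0.084). The release factor gene Mtrf1l read 5.78, 5.73 and 6.40 against 6.06 and 6.63, or -0.38 (-1.04 to 0.28). In both genes the exposed and control arrays overlapped. Translation factors had their lowest median on exposed array 1 (-0.26), and 0.053 and 0.072 on exposed arrays 2 and 3 against 0.042 and 0.066 on the controls.

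Among 27 assembly factors, which fold and modify the ribosomal RNAs, 17 were higher (median 0.070). The pseudouridine synthase gene Rpusd3 differed by 0.47 (0.080 to 0.86), with values of 6.07, 6.06 and 6.32 against 5.53 and 5.83, and the large subunit GTPase gene Mtg2 by -0.40 (-0.82 to 0.022). Of 19 genes that charge mitochondrial tRNAs 11 were higher (median 0.060), with Wars2 at 0.51 and Pars2 at -0.45. Of 16 genes for copying, transcribing and handling mitochondrial DNA and RNA 6 were higher (median -0.099), with the RNA-binding protein gene Lrpprc at -0.41 and the elongation factor gene Tefm at -0.35. Nuclear regulators were split 6 and 6, with a median of 0.0031, Esrrb at -0.26 (-0.63 to 0.11) and Myc at -0.26 (-0.69 to 0.18). Esrrb read only 1.94 to 2.47, far under the table's median of 4.81. Gabpa, named for the ETS motif and outside the rule, read 9.02, 9.21 and 9.26 against 9.41 and 9.25. None of these genes passed.

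Beside the mitochondrial ribosome stand the respiratory chain it serves and the cytosolic ribosome. Of 81 oxidative phosphorylation subunits 64 had a higher exposed mean, with a median difference of 0.082. Their array medians were -0.042, 0.038 and 0.083 against -0.072 and -0.031, so exposed array 3 was highest and control array 1 lowest, as for the mitochondrial ribosomal proteins. Of 60 cytosolic ribosomal protein genes 39 were higher, with a median difference of 0.024 and array medians between -0.013 and 0.0090. Neither group had a called gene, and no difference between the groups was tested.

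**Figure D5:**
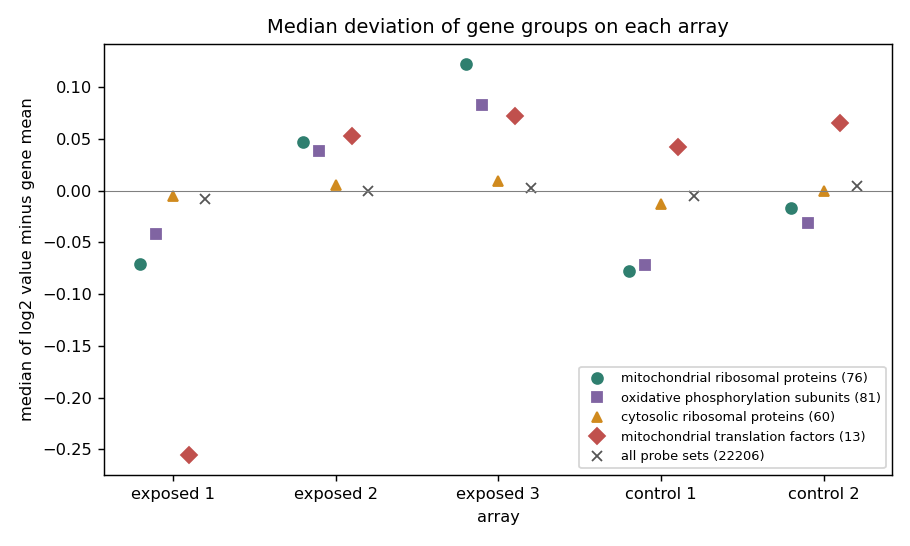
Median deviation from the gene mean, on the log2 scale, of 5 gene groups on each array. Each symbol is a group's median on an array, set side by side for legibility. Mitochondrial ribosomal proteins and oxidative phosphorylation subunits are highest on exposed array 3 and lowest on control array 1, cytosolic ribosomal proteins lie between -0.013 and 0.0090, and translation factors are lowest on exposed array 1.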

How the data were processed

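The table deposited by the authors holds log2 values of 5 Affymetrix Clariom S arrays, made with RMA in Partek per the submitters' processing notes. RMA corrects background, quantile normalizes arrays and summarises probes. Versions and annotation build are not given in the sources used here. Symbols came from the platform annotation, and all 76 matched the RefSeq gene table.

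The fit used R 4.3.3 and limma 3.58.1 on all 22206 probe sets, with the group as the one term, moderated variances, two-sided tests and Benjamini-Hochberg adjustment. Residual degrees of freedom were 3, and the prior added 3.17. Calls needed an adjusted p below 0.05. The script was tested on simulated data.

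Members and lists were chosen with earlier results of these data known. Named genes were the 5 per direction of lowest p, the 4 of widest and 4 of narrowest range, the widest difference per role group, Mrpl12, Mrps18a to Mrps18c, Mrps30 and Mrps36, and 2 genes per pathway list. Promoter windows came from RefSeq (GRCm38.p6); protein sequences were not used here. Alternatives were each array left out, blocks, scaling, filters, moderation and weights.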

Additional observations from a re-analysis of the deposited data

How the results depend on the processing

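Limma called 0 members under every alternative run. Members with an unadjusted p under 0.05 numbered 1 as reported, beside 776 of all 22206 probe sets. Once arrays were shifted to one median they numbered 0 (772 of all). They numbered 2 with quantile normalization repeated (800 of all), title neighbours as a block (937) or array weights (894). With trended variances they were 3 (771 of all), and with unmoderated variances also 3 (626). With 1 exposed array left out they were 0 to 2 (760 to 940 of all). The median difference (0.093) ranged from 0.047 to 0.14 and the number of higher means (61) from 51 to 66. The labels do not say that replicate numbers pair the arrays, and with 2 pairs this could not be settled; deviations of same-numbered arrays from their group means correlated at -0.014 and -0.032. With replicate number as a block, exposed array 3 has no counterpart. In that fit 0 members and 789 of all probe sets had an unadjusted p under 0.05. The members' median difference was 0.053, and Mrps30 turned to -0.050.

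Of 24 named members 20 kept their sign under all alternatives run. Not all of these could change a sign, since filters and the handling of variances leave a difference as it is. The blocks add no separate check of sign either. Replicate number leaves exposed array 3 alone in its block, and title neighbours leave exposed array 1 alone. Their differences therefore equal those without that array. With 1 array left out, Mrpl1 ranged from -0.44 to 0.094, Mrpl3 from -0.31 to 0.011, Mrps18b from -0.042 to 0.14 and Mrps30 from -0.050 to 0.11. With title neighbours as a block Mrpl1 was 0.094 and Mrpl3 0.011, and with shifted arrays Mrps30 was -0.00081. Members whose groups did not overlap numbered 12 (15.8%, against 17.3% of all probe sets). They were 19 (25%, against 29.1%, without exposed array 3) to 38 (50.0%, against 30.1%, without exposed array 1) with 1 array left out, a check chosen after seeing the data. The shares were 26.3% against 31.6% without exposed array 2, 38.2% against 44.6% without control array 1 and 47.4% against 45.1% without control array 2. The cause of the other changes was not tested. Without a control array, the remaining one is taken to vary as the exposed arrays do. The number of arrays limits the precision of all values.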
